A study of Mus musculus with 9 samples.

Results

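Spi1, Maf, Cebpa, Irf8, Tfec, Zeb2, Mef2c, Runx1 and Batf3 encode transcription factors that set or hold macrophage identity. They were chosen by name as lineage factors, with earlier results of these data known, and their rows are 9 of the 18049 genes in the deposited table. The gene lists below were chosen with the same knowledge. Counts over the 9 or over a list are thus descriptions, and the shares of all tested genes beside them make no test. All 9 were listed, and all 9 passed the filter of at least 1 FPKM (a read count scaled to transcript length and library size) in at least 3 of the 9 libraries. The cells were bone marrow-derived macrophages, grown in RPMI medium from C57BL/6 mice aged 8 weeks. They were given medium alone (the control), 1 µM 15d-PGJ2 or 1 µM 15d-PGJ2-PC, with 3 libraries per group, and RNA was taken after 6 h. 15d-PGJ2 is 15-deoxy-Δ12,14-prostaglandin J2, an electrophilic cyclopentenone prostaglandin. What PC stands for is not given in the labels, so no structure is stated for 15d-PGJ2-PC. The labels give no separate culture or animal for each library, so a p-value below speaks only to variation among these libraries, some of which may be technical.

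The macrophage program is built in layers. PU.1, the ETS-family product of Spi1, binds most macrophage enhancers and works with C/EBPα (Cebpa) to make myeloid cells from progenitors, with RUNX1 (Runx1) acting upstream of both. IRF8 (Irf8) binds beside PU.1 and directs progenitors to monocytes and away from granulocytes. BATF3 (Batf3) is a short bZIP factor that pairs with JUN proteins and with IRF8 or IRF4. c-MAF (Maf) restrains self-renewal of mature macrophages and drives complement C1q and Il10. ZEB2 (Zeb2), MEF2C (Mef2c) and TFEC (Tfec, a relative of MITF) act in mononuclear cells in more restricted ways.

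The libraries were alike in depth. The spacing of low FPKM values put them at about 5395000 to 5480000 reads each, with 10876 to 11026 genes at 1 FPKM or more. Macrophage markers were abundant, summing to 12050 to 12590 FPKM over 18 listed genes in controls, 8898 to 9499 with 15d-PGJ2 and 10680 to 11050 with 15d-PGJ2-PC. Dendritic cell markers were near 0, with sums of 3.14 to 5.08 FPKM in all libraries over the 10 of 11 listed genes that were in the table. Stromal and keratinocyte transcripts were higher in controls. Their sums were 56.4 to 65.4 and 27.1 to 33.6 FPKM in controls, 11.4 to 14.7 and 2.34 to 3.85 with 15d-PGJ2, and 10.7 to 11.1 and 1.83 to 3.71 with 15d-PGJ2-PC. With each compound, 8 of 8 tested stromal and 6 of 7 tested keratinocyte markers fell against control. Among all tested genes 25.0% fell with 15d-PGJ2 and 14.1% with 15d-PGJ2-PC. Genes such as Krt1, Krt5, Krt14, Lor, Krtdap, Col3a1, Dcn and H19 passed the filter only through the controls. Their falls were thus set by the filter, and these counts carry no support of their own. Among stromal genes Pdgfra and Thy1 were listed at 0 in every 15d-PGJ2 library and Lum and Thy1 in every 15d-PGJ2-PC library. Pdgfra, Thy1 and Lum were near 0 in controls too, at means of 0.05, 0.03 and 0.37 FPKM, and were not tested. The keratin genes Krt5, Krt14 and Krt1 and the loricrin gene Lor were listed at 0 in all 6 treated libraries. Neither list passed in any gene between the compounds. Some other non-macrophage transcripts, named after their values were seen, were also higher in controls. The globin gene Hba-a1 was at 16.4, 0.44 and 0.11 FPKM in control, 15d-PGJ2 and 15d-PGJ2-PC. Of 4 tested erythroid and megakaryocyte markers 3 fell with each compound. Those 3 were globin genes that passed the filter only through the controls, so the filter set their falls. The remaining marker, Pf4, was at 49.1, 49.05 and 52.8 FPKM and did not pass against control. The B cell gene Cd79b was at 43.1, 15.7 and 26.7 FPKM and was higher with 15d-PGJ2-PC than with 15d-PGJ2 (adjusted p = 0.000443), whereas Pax5 was listed at 0 in every control and 15d-PGJ2 library. Of 7 tested neutrophil markers 5 fell and 1 rose with 15d-PGJ2, and 1 fell, 1 rose and 5 did not pass with 15d-PGJ2-PC. The marker that rose was Mpo, at 0.09, 1.69 and 1.99 FPKM, which passed the filter only through the treated libraries. The part of this RNA in the differences from control was not tested. In bulk RNA, fewer cells of a type and less RNA per cell cannot be told apart.

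Both compounds lowered 7 of the 9 lineage factors and raised Cebpa and Tfec. With 15d-PGJ2 the 7 fell by 27.1% (Spi1) to 59.4% (Maf) in mean FPKM, and Tfec and Cebpa were 65.3% and 81.4% above control. With 15d-PGJ2-PC the same 7 fell by 17.7% to 40.0%, and the rises were 52.1% for Cebpa and 65.6% for Tfec. Every call here is limma's moderated test on log2(FPKM + 1), 2-sided, with Benjamini-Hochberg adjustment over the 11309 genes tested and a threshold of 0.05. Among all those genes 25.0% fell and 22.2% rose with 15d-PGJ2, and 14.1% fell and 13.8% rose with 15d-PGJ2-PC. The 3 treated libraries did not overlap the 3 control libraries for any of the 9 factors with either compound, against 55.1% of all tested genes with 15d-PGJ2 and 41.8% with 15d-PGJ2-PC. The median difference over the 9 was -0.66 on the log2 scale with 15d-PGJ2, where all tested genes had a median of -0.02. With 15d-PGJ2-PC the median was -0.39. The comparisons with control share the same 3 control libraries. Since the 9 were chosen with earlier results of these data known, their counts carry no support of their own.

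**Figure D1:**
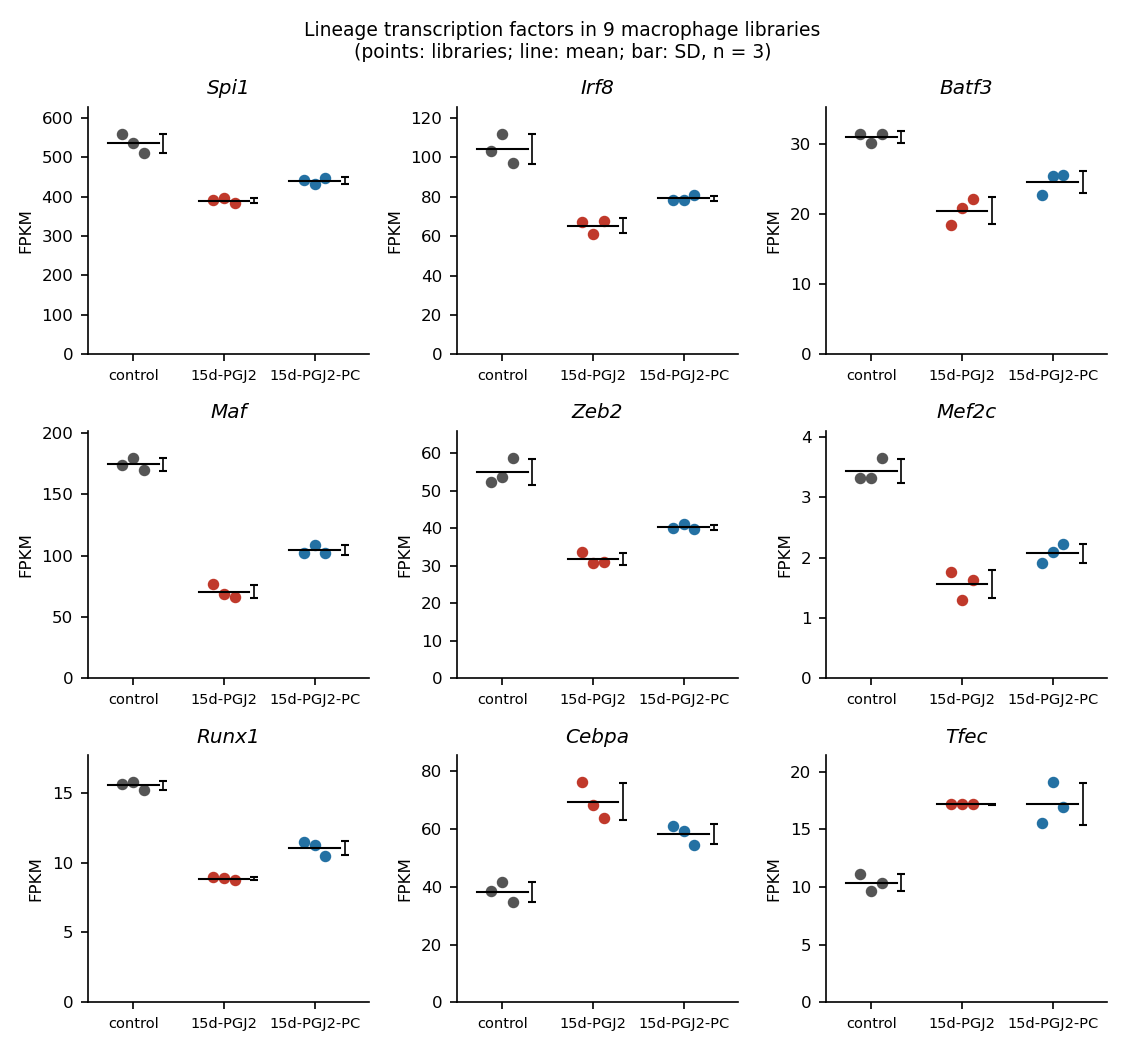
FPKM (linear axes from 0) of the 9 lineage factors in each library, by group. Points are libraries, horizontal lines are means and vertical bars are SD (n = 3). In the first 7 panels the control libraries are highest and the 15d-PGJ2 libraries lowest, whereas Cebpa and Tfec are lowest in controls.

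Spi1 (Entrez 20375, GRCm38 chromosome 2, 91082374 to 91115759, plus strand, protein coding) was the most abundant of the 9. It was listed at 560, 535 and 511 FPKM in controls, against 390.2, 397 and 382 with 15d-PGJ2, and 442, 431 and 448 with 15d-PGJ2-PC. The 3 groups did not overlap, with 15d-PGJ2-PC between the other groups. Spi1 fell by 0.46 on the log2 scale with 15d-PGJ2 (SE 0.04, adjusted p = 1.91e-06) and by 0.28 with 15d-PGJ2-PC (adjusted p = 0.000185). These were the smallest differences from control among the 9, measured on an estimated 4239 to 6238 reads per library.

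Irf8 (Entrez 15900, chromosome 8, 120736358 to 120756694, plus strand) was at 103, 112 and 97.3 FPKM in controls. It was at 67.3, 61.0 and 67.9 with 15d-PGJ2 and at 78.6, 78.5 and 80.8 with 15d-PGJ2-PC. Again 15d-PGJ2 gave the lowest libraries and the groups stood apart. The log2 difference from control was -0.66 (95% interval -0.79 to -0.54, adjusted p = 3.98e-06) with 15d-PGJ2 and -0.39 (-0.52 to -0.26, adjusted p = 0.000507) with 15d-PGJ2-PC.

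Batf3 (Entrez 381319, chromosome 1, 191098414 to 191108943, plus strand), best known for its need in cross-presenting dendritic cells, was present in these cells at 31.4, 30.1 and 31.5 FPKM in controls. The same libraries held Flt3, Clec9a and Ccr7, dendritic genes named after their values were seen, at means of 0.05, 0.11 and 0.06 FPKM. Of 11 listed dendritic genes 10 were in the table. Of those 10, 8 had control means under 1 FPKM, and Xcr1 and Itgax were at 1.06 and 1.89. Batf3 was at 18.4, 20.9 and 22.1 FPKM with 15d-PGJ2 and at 22.8, 25.5 and 25.6 with 15d-PGJ2-PC. All treated libraries lay under the controls, and the compounds were separated by a narrow gap. The log2 differences from control were -0.58 (adjusted p = 6.72e-05) and -0.32 (adjusted p = 0.00686). Batf3 has a short transcript, so these values rest on an estimated 80 to 138 reads.

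Maf (Entrez 17132, chromosome 8, 115703253 to 115706894, minus strand) fell most. It was at 173, 180 and 169 FPKM in controls, against 76.9, 68.8 and 66.3 with 15d-PGJ2, and at 102, 109 and 102 with 15d-PGJ2-PC. The controls were thus 2.46-fold above 15d-PGJ2 and 1.67-fold above 15d-PGJ2-PC in mean FPKM. Maf fell by 1.29 (SE 0.06, adjusted p = 2.1e-08) and by 0.73 (adjusted p = 4.7e-06) on the log2 scale. Of all tested genes 1.97% fell further with 15d-PGJ2 and 2.34% with 15d-PGJ2-PC.

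Zeb2 (Entrez 24136, chromosome 2, 44983512 to 45117442, minus strand) encodes a zinc finger repressor that holds Id2 down in mononuclear cells. It was at 52.5, 53.8 and 58.9 FPKM in controls, against 33.7, 30.8 and 31.1 with 15d-PGJ2, and 40.1, 41.1 and 39.8 with 15d-PGJ2-PC. Zeb2 fell by 0.77 (adjusted p = 8.72e-07) and by 0.44 (adjusted p = 0.000163) on the log2 scale. Id2, named after its values were seen, was at 55.2, 76.2 and 80.2 FPKM in the same order of groups and rose with both compounds (log2 differences 0.46 and 0.53, adjusted p = 5.42e-05 and 4.79e-05). Between the compounds Id2 did not pass (limma adjusted p = 0.406). A link between the fall of Zeb2 and the rise of Id2 was not tested.

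Runx1 (Entrez 12394, chromosome 16, 92601466 to 92826074, minus strand) gave tight values. It was at 15.6, 15.8 and 15.2 FPKM in controls, against 8.95, 8.87 and 8.72 with 15d-PGJ2, and 11.5, 11.2 and 10.5 with 15d-PGJ2-PC. Runx1 fell by 0.75 (adjusted p = 2.11e-06) and by 0.45 (adjusted p = 0.000217) on the log2 scale, and again no group overlapped another. Mef2c (Entrez 17260, chromosome 13, 83504017 to 83667079, plus strand), a MADS-box factor of monocytic fate, was the scarcest, at an estimated 19 to 54 reads per library. It was at 3.32, 3.32 and 3.66 FPKM in controls, against 1.76, 1.30 and 1.63 with 15d-PGJ2, and 1.91, 2.09 and 2.22 with 15d-PGJ2-PC. Mef2c fell by 0.79 (SE 0.11, adjusted p = 0.000177) and by 0.53 (adjusted p = 0.00511), values that understate its change because the added 1 is large beside its level. In FPKM its means fell by 54.5% and 39.6%.

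Cebpa (Entrez 12606, chromosome 7, 35119293 to 35121928, plus strand) went the other way. It was at 38.5, 41.5 and 34.7 FPKM in controls, against 76.3, 68.0 and 63.7 with 15d-PGJ2, and 60.8, 59.2 and 54.4 with 15d-PGJ2-PC. The controls were lowest and the 15d-PGJ2 libraries highest, with no overlap. Cebpa rose by 0.84 (SE 0.08, adjusted p = 7.8e-06) and by 0.59 (adjusted p = 0.000251) on the log2 scale. Of all tested genes 4.30% rose further with 15d-PGJ2 and 3.74% with 15d-PGJ2-PC.

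Tfec (Entrez 21426, chromosome 6, 16830927 to 16898464, minus strand), expressed mainly in macrophages and osteoclasts, was the other gene to rise. It was at 11.2, 9.64 and 10.4 FPKM in controls, 17.2 in each of the 15d-PGJ2 libraries and 15.6, 19.2 and 17.0 with 15d-PGJ2-PC. The treated groups overlapped each other and not the controls. The log2 differences from control were 0.68 (adjusted p = 4.42e-05) and 0.67 (adjusted p = 0.000109).

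The 1 pair of compounds was then compared at the same dose and time, as 15d-PGJ2-PC against 15d-PGJ2. Of the 9 factors 6 were higher with 15d-PGJ2-PC, none passed as lower and 3 did not pass (limma; at an unadjusted p under 0.05 Cebpa was lower), where 12.3% of all tested genes were higher and 8.30% lower. The libraries of the compounds did not overlap for 8 of the 9, against 37.3% of all tested genes. Maf differed most, at 1.48-fold in mean FPKM (log2 difference 0.56, 95% interval 0.44 to 0.68, adjusted p = 5.3e-05). Zeb2 differed by 0.33 (0.21 to 0.45, adjusted p = 0.00163), Runx1 by 0.29 (0.16 to 0.42, adjusted p = 0.00555), Irf8 by 0.27 (0.15 to 0.40, adjusted p = 0.00657) and Spi1 by 0.17 (0.10 to 0.25, adjusted p = 0.00579). These genes were thus nearer to control with 15d-PGJ2-PC than with 15d-PGJ2. The smallest 2-sided p that an exact permutation test of 1 gene can give with 3 libraries against 3 is 0.1, and 8 of the 9 reached it.

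The remaining differences between the compounds were less settled. Batf3 was higher with 15d-PGJ2-PC by 0.26 (0.10 to 0.42, adjusted p = 0.0297). Its call was lost without 15d-PGJ2 replicate 1 (adjusted p = 0.0866) or replicate 2 (0.0568), and without 15d-PGJ2-PC replicate 2 (0.0973) or replicate 3 (0.0926). Cebpa was lower with 15d-PGJ2-PC by a log2 difference of -0.25 (-0.42 to -0.07) and just missed the threshold (adjusted p = 0.0508). It passed without control replicate 2 (0.0443) or 3 (0.0346) and without 15d-PGJ2 replicate 3 (0.0359), and its adjusted p ran from 0.0138 to 0.159 across the 18 alternatives. Mef2c differed by 0.26 (0.02 to 0.51, adjusted p = 0.13, unadjusted 0.0395) and did not pass, though the libraries of the compounds did not overlap. It passed without the intensity trend (adjusted p = 0.0493). For Tfec the log2 difference was -0.0016 (95% interval -0.18 to 0.18, adjusted p = 0.994), and the mean FPKM values were 17.2 ± 0.03 and 17.2 ± 1.82 (SD, n = 3).

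**Figure D2:**
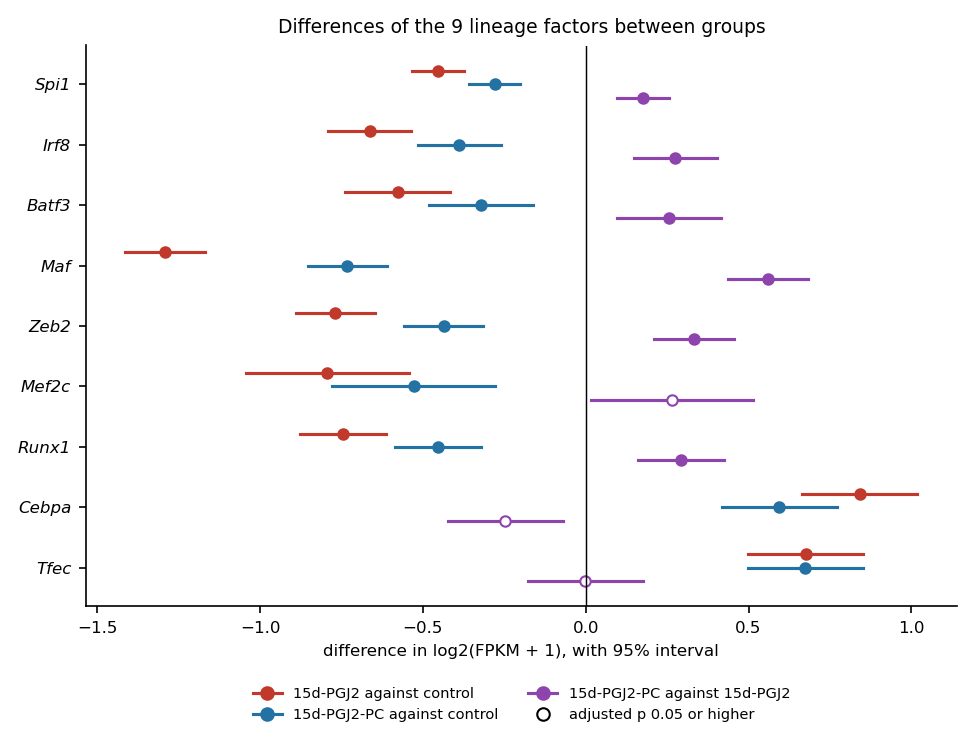
Difference in log2(FPKM + 1) for each lineage factor (horizontal axis) in the 3 comparisons, with 95% intervals from limma over 9 libraries. Filled points have an adjusted p under 0.05. Cebpa and Tfec are the only 2 of these genes right of 0 against control, and the interval of Tfec between the compounds is centred on 0.

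FPKM is scaled to transcript length, so the levels of the 9 factors can be set in order within a group. In controls the order was Spi1, Maf, Irf8, Zeb2, Cebpa, Batf3, Runx1, Tfec and Mef2c, and no neighbours overlapped. With 15d-PGJ2, Cebpa (69.3 ± 6.39 FPKM) overlapped both Maf (70.7 ± 5.56) and Irf8 (65.4 ± 3.82), so these 3 could not be ranked, and Tfec lay above Runx1. With 15d-PGJ2-PC, Cebpa moved above Zeb2 and Tfec above Runx1, with no overlap between neighbours. The ratio of Spi1 to Cebpa, a pair whose balance sets myeloid fates in progenitors, was chosen after the values were seen. It was 14.5, 12.9 and 14.8 in controls, 5.12, 5.84 and 6.00 with 15d-PGJ2, and 7.26, 7.29 and 8.23 with 15d-PGJ2-PC. Spi1 and Cebpa each separated the 3 groups, in opposite orders, so the groups could not overlap in this ratio. The ratio therefore adds no support beyond the values of those genes.

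The factors also differed in how alike their patterns were. Over the 9 libraries, with each gene centred on its own mean, Zeb2 and Runx1 were the closest pair (root mean square difference 0.07 on the log2 scale) and Maf and Cebpa the farthest (0.88). Among 8042 other tested genes with a mean of at least 5 FPKM in some group, Cd14, the lipopolysaccharide co-receptor gene, was the second closest to Spi1, after Limd2 (0.03 for each). The closest to Maf were Tlr9, an endosomal DNA sensor gene, and Sik1 (0.05 and 0.06). Irf8 was most like Tm6sf1 and Marcks (0.05 each), Zeb2 most like Calr and Akap13 (0.04 and 0.05), and Runx1 most like Ppp1r9b and Nrros (0.03 each). Batf3 lay closest to Golph3l and Hdgfrp3 (0.04 and 0.06) and Mef2c to Plekha2 and Kdm2b (0.06 each). The rising factors had looser neighbours, Creg1 and Spen for Cebpa (0.08 each) and Ermp1 and Dubr for Tfec (0.07 and 0.08).

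Other myeloid transcription factors moved both ways. Of 57 listed genes 56 were in the table and 47 were tested. With 15d-PGJ2, 20 fell, 14 rose and 13 did not pass (median log2 difference -0.21), where 25.0% of all tested genes fell and 22.2% rose. With 15d-PGJ2-PC, 17 fell, 11 rose and 19 did not pass (median -0.165), where 14.1% of all tested genes fell and 13.8% rose. Spic, the PU.1 relative of iron-recycling macrophages, rose most clearly, from 63.9 FPKM in controls to 219.5 with 15d-PGJ2 or 184 with 15d-PGJ2-PC (log2 differences 1.77 and 1.51, adjusted p = 4.66e-09 and 5.8e-08). Bach1, the heme-sensing repressor, rose from 49.9 to 75.5 and 69.9 FPKM, and the AP-1 repressor gene Jdp2 from 23.95 to 43.4 and 40.1. The Ikaros gene Ikzf1 fell from 50.6 to 25.3 and 32.6 FPKM. Nr1h3, which encodes the sterol sensor LXRα, fell from 124 to 54.6 and 97.8 FPKM.

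Close relatives of the 9 factors, named after their values were seen except where the naming rule took them (Irf5, Ets2 and Spic), were set beside them. Cebpb rose with Cebpa, from 153 to 246 and 211 FPKM (0.69 and 0.47), whereas Cebpd fell, from 37.6 to 30.9 and 24.5 (-0.27 and -0.60). In the MITF family, Mitf rose from 10.2 to 13.8 and 13.3 FPKM and Tfe3 from 71.2 to 82.9 and 79.0. Tfeb was at 28, 23.99 and 24.8 FPKM and did not pass against control (adjusted p = 0.077 and 0.206). Without control replicate 2 or 15d-PGJ2 replicate 3 Tfeb passed as lower with 15d-PGJ2 (adjusted p = 0.0335 and 0.0494), and likewise with libraries rescaled to equal totals (0.0357).

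Mef2d rose slightly while Mef2c fell, from 36.2 to 40.7 and 41.4 FPKM (0.17 and 0.19, adjusted p = 0.0073 and 0.00575), and Mef2a, at 25.3, 24.1 and 24.8 FPKM, did not pass. Zeb1 and Runx3 were near the filter, at control means of 1.83 and 1.33 FPKM, and did not pass in any of the 3 comparisons. Runx2, also near the filter, had means of 0.86, 1.34 and 0.77 FPKM in control, 15d-PGJ2 and 15d-PGJ2-PC. Spib, a relative of Spi1, had means of 3.16, 1.59 and 2.05 FPKM. Irf5, which drives inflammatory cytokines, fell from 175 to 108 and 149 FPKM (-0.69 and -0.23), and Irf4, a partner of BATF3, was at 0.06, 0.20 and 0.04 FPKM and was not tested. Batf was at 76.3, 65.9 and 73.7 FPKM. It fell with 15d-PGJ2 (adjusted p = 0.019), though not without control replicate 1 (0.0753) or 15d-PGJ2 replicates 2 or 3 (0.0511 and 0.053), nor with quantile normalization (0.0971). Ets2, an ETS factor downstream of the CSF1 receptor, rose with 15d-PGJ2 (24.1 to 41.5 FPKM, 0.76, adjusted p = 1.39e-05) and was at 26.7 with 15d-PGJ2-PC (adjusted p = 0.215 against control). The difference between the compounds for Ets2 was -0.62 (adjusted p = 0.000249).

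**Figure D3:**
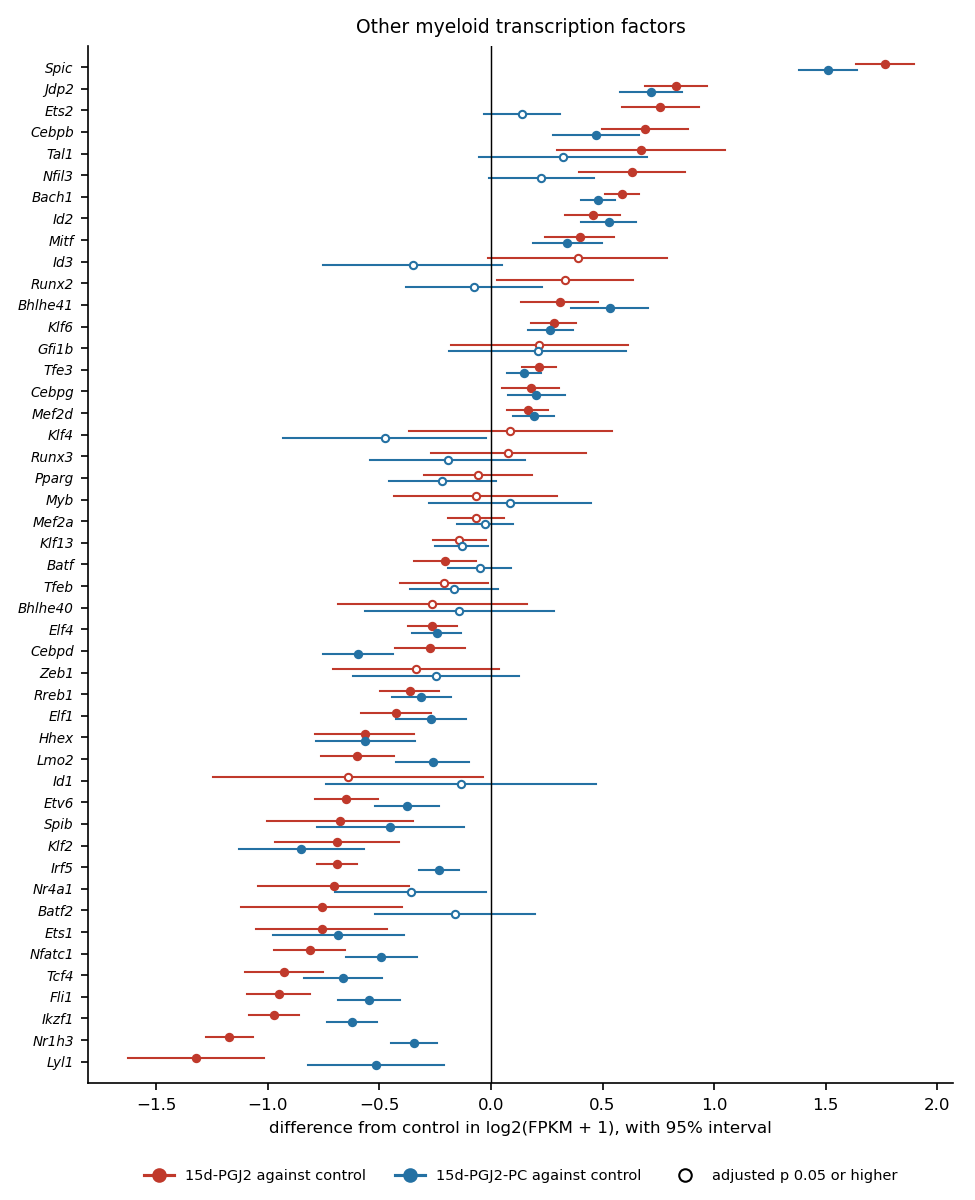
Differences from control in log2(FPKM + 1) (horizontal axis, 95% intervals) for the 47 tested myeloid transcription factors outside the 9, sorted by 15d-PGJ2. Filled points have an adjusted p under 0.05. Spic stands at the top with both compounds (1.77 and 1.51), and Nr1h3 is near the bottom.

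Genes for proteins that the lineage factors work with moved both ways. Of 17 tested (18 in the table), 6 fell, 4 rose and 7 did not pass with 15d-PGJ2, and 8 fell, 1 rose and 8 did not pass with 15d-PGJ2-PC (medians -0.07 and -0.14). Over all tested genes 25.0% fell and 22.2% rose with 15d-PGJ2, and 14.1% and 13.8% with 15d-PGJ2-PC. Irf1 and Irf2, whose products pair with IRF8 on DNA, fell together with Irf8. Irf1 went from 69.3 to 26.5 and 43.0 FPKM (-1.35 and -0.68, adjusted p = 4.23e-08 and 2.43e-05) and Irf2 from 35.7 to 18.6 and 22.5 (-0.91 and -0.64). Trib1, an adaptor for the degradation of C/EBPα protein, fell from 11.6 to 4.87 and 4.07 FPKM (-1.11 and -1.33, adjusted p = 5.89e-05 and 4.14e-05). The coactivator gene Ep300 fell by 0.34 with 15d-PGJ2 and by 0.23 with 15d-PGJ2-PC. Cbfb, the obligate partner of RUNX1, named after its values were seen, was at 28.6, 29.9 and 26.8 FPKM and did not pass against control (adjusted p = 0.419 and 0.296). Smad3 was at 10.2, 8.81 and 6.70 FPKM and fell with 15d-PGJ2-PC (-0.54, adjusted p = 0.000868). Its difference with 15d-PGJ2 did not pass (adjusted p = 0.0977) except without control replicate 1 (0.0451).

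Textbook target genes of the 9 factors mostly fell. All 25 listed were tested. With 15d-PGJ2, 21 fell, 2 rose and 2 did not pass (median -0.53), and with 15d-PGJ2-PC 15 fell, 1 rose and 9 did not pass (median -0.25). Between the compounds 18 were higher with 15d-PGJ2-PC, 2 lower and 5 did not pass. The shares of all tested genes were 25.0% fallen and 22.2% risen with 15d-PGJ2, 14.1% and 13.8% with 15d-PGJ2-PC, and 12.3% higher and 8.30% lower between the compounds. The list shares 10 genes with the macrophage markers. All 10 fell with 15d-PGJ2, and with 15d-PGJ2-PC 8 did, Cd68 and Msr1 (named after their values were seen) not passing (adjusted p = 0.13 and 0.27). Csf1r, the receptor gene of the macrophage growth factor and a classic PU.1 and RUNX1 target, was at 399, 267.5 and 354 FPKM in control, 15d-PGJ2 and 15d-PGJ2-PC. It fell by 0.58 (adjusted p = 4.84e-07) and by 0.17 (adjusted p = 0.00611), the latter not with quantile normalization (adjusted p = 0.121). C1qb, a complement gene downstream of c-MAF, fell from 1594 to 1062 and 1330.0 FPKM (-0.59 and -0.26).

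Cybb, the NADPH oxidase gene and a target of PU.1 and IRF8, fell from 203 to 135 and 172 FPKM. Fcgr1, a high-affinity IgG receptor gene, fell from 66.1 to 27.2 and 34.5 FPKM (-1.26 and -0.92), Csf2rb from 37.4 to 17.4 and 26.6, and the cathepsin gene Ctsc from 83.4 to 44.1 and 56.4. Slc11a1, the phagosomal metal transporter gene that IRF8 activates, rose from 343 to 431 and 403 FPKM (0.33 and 0.23, adjusted p = 4.73e-06 and 0.000151). Itgb2 rose with 15d-PGJ2 (0.10, adjusted p = 0.0177), and Csf2ra and Tlr4 passed with neither compound. Those 3 were named after their values were seen. Itgb2 was at 326, 349 and 324 FPKM.

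**Figure D4:**
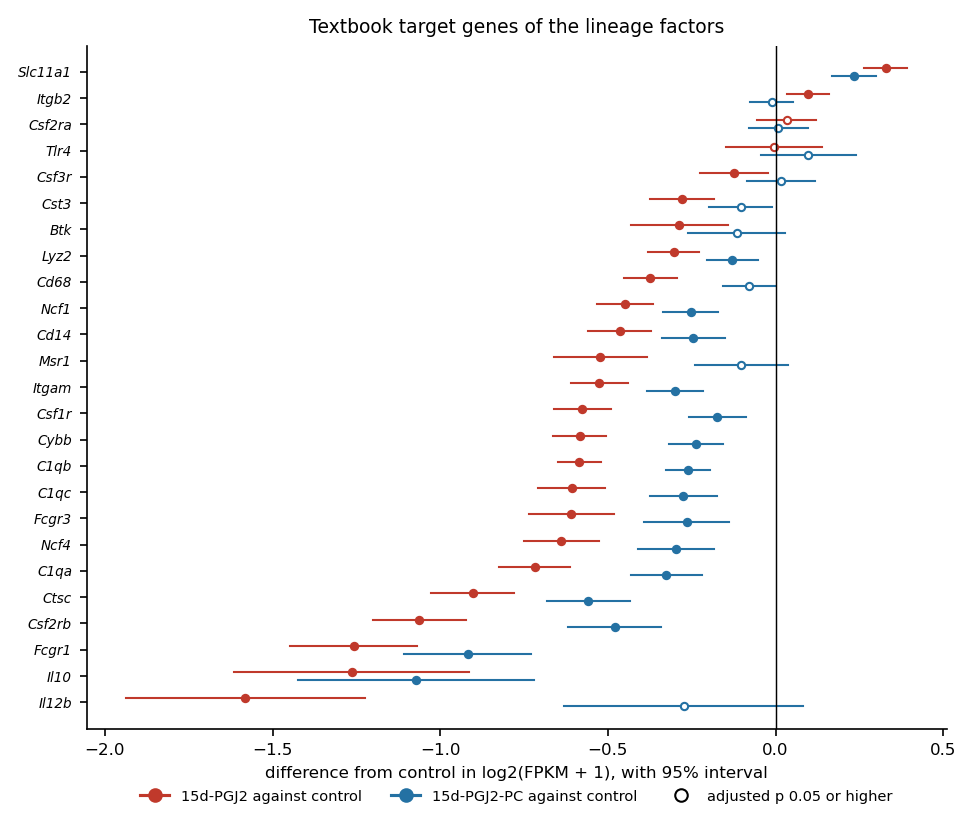
Differences from control in log2(FPKM + 1) (horizontal axis, 95% intervals) for 25 textbook target genes, sorted by 15d-PGJ2. Filled points have an adjusted p under 0.05. Most 15d-PGJ2 points lie left of 0 and left of the matching 15d-PGJ2-PC points, and Slc11a1 is at the top.

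Promoters of 7 of the 9 factors were in the RefSeq promoter table of build GRCm38.p6 (Cebpa, Irf8, Tfec, Zeb2, Mef2c, Runx1 and Batf3), with 14 start sites. The 250 bases before each start were searched on both strands. The motifs were the PU.1 core GAGGAAGT, the ETS core GGAA (which the PU.1 core contains), C/EBP TTGCNNAA, RUNX TGTGGT and the interferon-stimulated element GAAANNGAA. The heat shock element GAANNTTC, the antioxidant element TGANNNNGC, the interferon-γ-activated GAS element TTCNNNGAA and the E-box CANNTG were also searched. GAS matches lay in 5 of the 14 windows, from Irf8, Zeb2 (2 overlapping windows), Mef2c and Batf3. The windows of Runx1, Cebpa and Tfec, the second Irf8 window, Zeb2 windows 1 and 4 and Mef2c windows 2 and 3 held none. Such a match was held by 7.02% of all 32851 windows. The antioxidant element matched 7 of 14 windows, with 35.2% of all windows, and GGAA matched all 14, with 93.4% of all. Neither the PU.1 core (2.44% of all windows) nor the interferon-stimulated element (7.13%) matched any, and C/EBP (9.56%), RUNX (14.0%) and heat shock (6.69%) each matched 1. E-boxes matched 5, with 66.2% of all windows.

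Upstream stretches of 4 genes are shown, to set a pair of genes that fell beside the pair that rose. No rule set the choice of Irf8 and Batf3. Runx1, which also fell, and other windows of Irf8, Zeb2 and Mef2c held no GAS match. The 4 stretches thus do not stand for all fallen or risen genes. The window of the first of 2 Irf8 starts, at chr8:120736108-120736357 on the plus strand, holds GAS matches at bases -171 to -163 and -153 to -145 from the start and an antioxidant match at -123 to -115. The Batf3 window, chr1:191098164-191098413 on the plus strand, holds a GAS match at -239 to -231. The Tfec window, chr6:16898442-16898691 on the minus strand, holds a RUNX match at -221 to -216 and an antioxidant match at -47 to -39. The Cebpa window, chr7:35119043-35119292 on the plus strand, holds none of the capitalised motifs. Each runs 5′ to 3′ along the gene and ends at the base before the start, and capitals mark GAS, antioxidant and RUNX matches.
Irf8: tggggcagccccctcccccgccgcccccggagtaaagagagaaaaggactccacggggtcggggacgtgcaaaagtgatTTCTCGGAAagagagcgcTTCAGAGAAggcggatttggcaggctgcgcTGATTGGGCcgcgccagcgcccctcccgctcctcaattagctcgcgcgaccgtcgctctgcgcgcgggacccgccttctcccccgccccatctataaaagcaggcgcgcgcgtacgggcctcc
Batf3: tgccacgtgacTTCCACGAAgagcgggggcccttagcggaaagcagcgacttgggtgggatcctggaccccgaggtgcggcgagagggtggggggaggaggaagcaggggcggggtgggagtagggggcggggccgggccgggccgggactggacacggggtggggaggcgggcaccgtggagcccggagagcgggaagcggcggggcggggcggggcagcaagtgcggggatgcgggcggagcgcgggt
Tfec: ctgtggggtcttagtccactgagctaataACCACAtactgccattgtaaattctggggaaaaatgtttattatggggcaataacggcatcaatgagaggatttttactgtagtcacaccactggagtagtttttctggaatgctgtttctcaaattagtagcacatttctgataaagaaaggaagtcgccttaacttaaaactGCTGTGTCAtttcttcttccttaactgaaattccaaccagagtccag
Cebpa: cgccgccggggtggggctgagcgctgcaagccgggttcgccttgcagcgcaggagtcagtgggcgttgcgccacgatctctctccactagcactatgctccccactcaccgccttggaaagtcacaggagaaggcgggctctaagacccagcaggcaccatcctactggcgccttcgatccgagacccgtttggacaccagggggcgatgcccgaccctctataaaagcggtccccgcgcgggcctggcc
A match is a run of letters, not a shown binding site. GC content was 67.2% for Irf8, 76.0% for Batf3 and 66.4% for Cebpa, and 39.2% for Tfec, against a median of 52.4% over all windows.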

How the data were processed

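The authors deposited 1 table of FPKM values, per the file headers, with 1 column per library and 2 decimals. Per the submitters' processing notes, BWA and mm10 were used. For the BWA version and the counting tool, nothing is stated in the sources used here. Values were used as deposited. Count models were not fitted, since FPKM are scaled values. Reads per library were estimated from the steps of low values of short genes (periodicity over a grid), and reads per gene from transcript length.

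The 11309 genes reaching 1 FPKM in 3 or more of the 9 libraries were tested on log2(FPKM + 1) with limma 3.58.1 in R 4.3.3, using an intensity trend, 1 residual variance per gene over all 3 groups and no covariate. The script was tested on simulated data. A fold on this scale understates the change of low genes. Gene coordinates are RefSeq's for GRCm38, 1-based.

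The members and lists were chosen with earlier results of these data known. Named genes are the 9 factors, the up to 4 genes of smallest p per list and comparison, and the 2 most alike per factor. The list counts carry no test, and some genes are not reported here. Alternatives were 18: pseudocounts of 0.1 and 0.5, no filter, a filter of 5 FPKM, rescaling, quantile normalization, no trend, 6 libraries alone, a replicate block, and leaving out each of 9 libraries.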

Additional observations from a re-analysis of the deposited data

How the results depend on the processing

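Against control, all 7 falls and 2 rises among the lineage factors were called under each of the 18 alternatives, except that Mef2c was not tested with a filter of 5 FPKM. Leaving out libraries gave 7 fallen and 2 risen with either compound each time. Between the compounds, 5 to 6 factors were higher with 15d-PGJ2-PC and 0 to 1 lower when a library was left out. The 1 lower was Cebpa, also with a filter of 5 FPKM, quantile normalization and the replicate block (1 each). Batf3 also lost its call without a filter (adjusted p = 0.0542), without the trend (0.0523) and with the 6 libraries alone (0.0685), and Mef2c passed without the trend (0.0493). Genes risen and fallen with 15d-PGJ2 numbered 2515 and 2823 (2184 to 2482 and 2535 to 2814 with a library left out). With 15d-PGJ2-PC they were 1556 and 1591 (1280 to 1540 and 1269 to 1604), and between the compounds 1396 and 939 (1092 to 1405 and 672 to 968).

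Differences near 0 changed sign without passing. For 15d-PGJ2-PC against 15d-PGJ2, Tfec was 0.0224 with libraries rescaled to equal totals and ran from -0.0767 to 0.0657 with a library left out (0.0657 and 0.0063 without 15d-PGJ2-PC replicates 1 and 3). Dubr ran from -0.0332 to 0.0986 and Zeb1 from -0.0075 to 0.2237 with a library left out, and Mef2d was -0.0092 with quantile normalization. Against control, with a library left out, Runx3 ran from -0.0378 to 0.1765 with 15d-PGJ2, and with 15d-PGJ2-PC Mef2a ran from -0.0591 to 0.0238 and Batf from -0.0922 to 0.0137. The cause was not tested.

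The labels do not say whether same-numbered libraries shared more than a number. Their deviations from the group means correlated at -0.043 to 0.052 (9 pairs), against -0.07 to 0.098 for 18 pairs with different numbers. Correlations over all tested genes cannot exclude a pairing that touches few genes. The replicate block gave 2469 risen and 2803 fallen with 15d-PGJ2, and Cebpa an adjusted p of 0.0138 between the compounds. Rescaling to equal totals gave 2191 and 3143, and quantile normalization 2713 and 2635. At 19 to 54 estimated reads per library, Mef2c had the fewest reads of the 9 factors.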
